A study of Mus musculus with 3 samples.

Results

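Mucosal antibody production and IgA transport were followed through 9 genes chosen by name, namely Igha, Ighm, Ighg3, Jchain, Pigr, Mzb1, Tnfrsf17, Cd79a and Ms4a1. They were measured by 12 of the 28944 probe sets of the array, those whose only gene symbol was 1 of the 9. The samples were distal colons of male BALB/c mice aged 10 to 12 weeks on day 7, with 1 array of pooled RNA in each of 3 groups. IL-4Rα-/- colitis was a pool of 6 mice homozygous for the Il4ra tm1Sz allele given 3% dextran sulfate sodium (DSS) in drinking water, WT colitis was a pool of 3 littermates given the same DSS, and WT normal was a pool of 4 WT mice given plain water. The disrupted allele is carried by every cell type of these mice, and untreated IL-4Rα-/- colon was not analysed here. The disease activity index of the pooled mice averaged 1.0 in IL-4Rα-/- colitis, 3.67 in WT colitis and 0.0 in WT normal, so genotype and severity cannot be told apart between the colitis pools. With 1 array per group no difference below has an error, a test or a p-value, and neighbouring levels cannot be set against a replicate spread.

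IgA is the main antibody of the gut lumen. Plasma cells in the lamina propria join IgA chains with the J chain into dimers, and the polymeric immunoglobulin receptor, made by epithelial cells from Pigr, carries them across the epithelium. On reaching the lumen the receptor is cut and part of it stays on the antibody as the secretory component. DSS injures the colonic epithelium and exposes the lamina propria to luminal bacteria. In RNA from whole colon, fewer cells of a type and less RNA per cell cannot be told apart.

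Signals are log2 values as the authors deposited them. The 1210 probe sets for olfactory and vomeronasal receptors, genes of sensory neurons, had a median log2 signal of 2.44 and a 95th percentile of 3.5, and signals up to 3.5 are called the background range here. All 13 genes on a list of colonic epithelium had a mean log2 signal of at least 4, with Krt8, an epithelial keratin, at 12.28 in IL-4Rα-/- colitis, 12.36 in WT colitis and 12.47 in WT normal. The targeted gene Il4ra was read at 4.76 in IL-4Rα-/- colitis, 6.63 in WT colitis and 5.69 in WT normal, and where its probes lie relative to the disrupted part of the gene was not tested. Of all probe sets, 46.9% had exactly the same deposited value on all 3 arrays. A further 19.2% were equal only between IL-4Rα-/- colitis and WT normal, against 6.75% equal only between the colitis arrays and 6.73% equal only between the WT arrays. A log2 difference of exactly 0 is therefore common, and the processing step behind it is stated in neither the labels nor the methods used here.

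Promoter sequences from RefSeq (GRCm38.p6), from 250 bases before to 50 bases after the annotated start, were found for 4 of the 9 genes. Those of 3 are printed to show the IgA receptor beside its cargo chain and a B cell gene, whose signals differed in pattern across the arrays. Capitals mark matches on either strand to 4 motifs that were picked after the sequences had been seen, namely the E-box CACGTG, the interferon response core AAANNGAAA, the Ets motif CAGGAAGT and the octamer ATGCAAAT. Of 32851 promoters of this length, 7.15% hold the E-box, 10.6% the interferon response core, 3.33% the Ets motif and 1.74% the octamer. The first line is Pigr (chr1:130826434-130826733, plus strand), the second Jchain (chr5:88527848-88528147, minus strand) and the last Cd79a (chr7:24897247-24897546, plus strand).
Pigr: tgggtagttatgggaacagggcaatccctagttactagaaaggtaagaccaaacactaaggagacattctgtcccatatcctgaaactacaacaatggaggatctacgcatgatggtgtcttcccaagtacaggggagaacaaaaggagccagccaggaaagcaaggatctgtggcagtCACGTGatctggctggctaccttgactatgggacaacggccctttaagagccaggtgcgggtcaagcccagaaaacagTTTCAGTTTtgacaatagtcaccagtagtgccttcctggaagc
Jchain: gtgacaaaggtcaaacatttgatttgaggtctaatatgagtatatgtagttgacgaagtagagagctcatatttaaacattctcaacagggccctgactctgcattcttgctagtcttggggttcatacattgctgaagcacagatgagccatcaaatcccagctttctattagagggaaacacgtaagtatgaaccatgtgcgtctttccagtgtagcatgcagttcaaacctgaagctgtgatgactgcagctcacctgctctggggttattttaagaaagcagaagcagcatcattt
Cd79a: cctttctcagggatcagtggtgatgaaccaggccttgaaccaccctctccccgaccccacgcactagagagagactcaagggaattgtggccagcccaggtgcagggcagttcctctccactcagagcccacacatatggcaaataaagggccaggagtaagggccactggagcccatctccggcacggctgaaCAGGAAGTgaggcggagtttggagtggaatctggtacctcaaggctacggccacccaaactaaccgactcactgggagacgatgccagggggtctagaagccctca
The Pigr window held the E-box, which reads the same on both strands, with its first base at -71 and the interferon response core on the minus strand from base 8 after the start. The Cd79a window held the Ets motif from -56, and the Jchain window held none of the 4. The remaining promoter found, that of Tnfrsf17, is not printed. It also held the interferon response core, on the minus strand from -101. These matches are letters in a window, not measured binding sites.

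Igha and Ighm signals peaked in WT colitis, while those of IL-4Rα-/- colitis lay nearer to WT normal. With each gene read by its brightest probe set, 3 of the 9 genes (Ighm, Igha and Ms4a1) passed 2-fold upward in WT colitis relative to WT normal and 0 downward, where 1.16% of all 19938 genes passed upward and 0.456% downward. Of the 9, 7 were above 0 and 2 below, where 35.8% of all genes were above 0 and 12.0% below. The remaining genes were exactly 0, which 0 of the 9 were. Among all genes that differed, those above 0 also outnumbered those below, 7130 against 2383. Relative to WT colitis, 2 of the 9 (Ighm and Igha) were over 2-fold down in IL-4Rα-/- colitis and 0 were over 2-fold up, against 0.908% down and 0.271% up among all genes. Here 2 of the 9 (Pigr and Ighg3) were above 0 and 7 below, where 10.4% of all genes were above 0 and 37.3% below. Among all genes that differed, those below 0 again outnumbered those above, 7432 against 2074. Relative to WT normal, 0 of the 9 passed 2-fold in IL-4Rα-/- colitis, with 0.186% of all genes up and 0.336% down. In that comparison 6 of the 9 were above 0, 2 below and 1 equal, where 16.4% of all genes were above 0 and 17.9% below. All 9 had a mean log2 signal of at least 4, as 11092 genes did. Of those 11092, 1.85% passed 2-fold upward in WT colitis relative to WT normal, where 45.1% were above 0 and 16.9% below. In IL-4Rα-/- colitis relative to WT colitis, 1.43% of them passed 2-fold downward, where 16.1% were above 0 and 44.3% below. The median log2 difference of the 9 was -0.49 between IL-4Rα-/- colitis and WT colitis, 0.77 between WT colitis and WT normal, and 0.23 between IL-4Rα-/- colitis and WT normal, always the first minus the second, where the median of all genes was 0.0 each time. The comparisons share arrays in pairs, so a high value on the WT colitis array alone counts as a plus in one and as a minus in another.

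**Figure D1:**
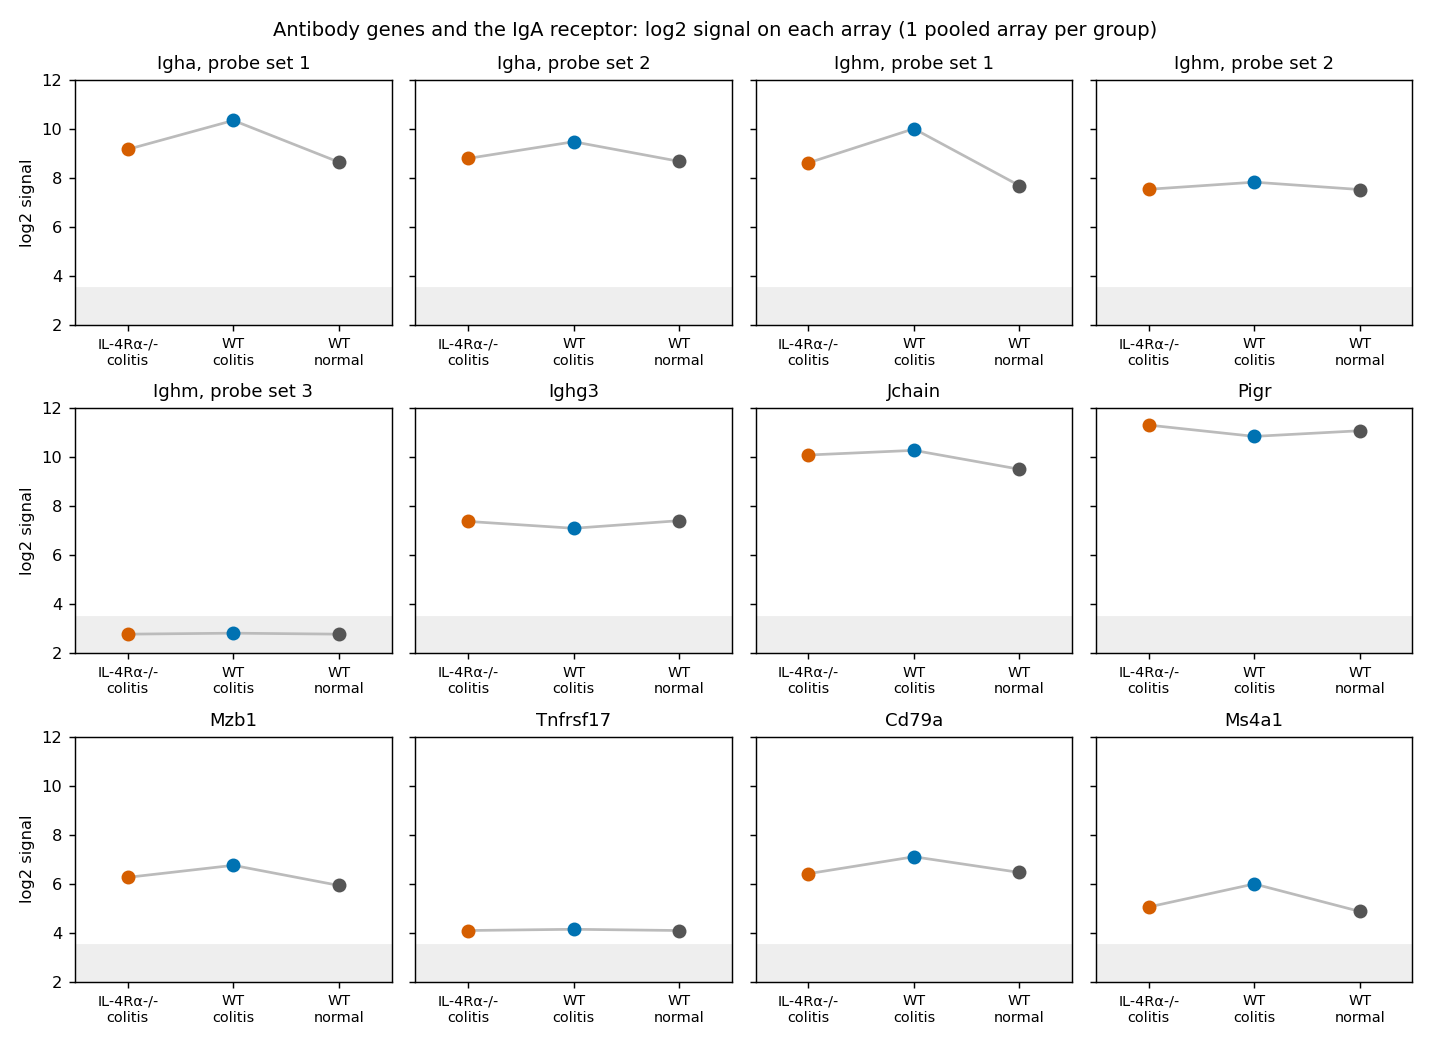
Log2 signal (y axis) of each of the 12 probe sets on the IL-4Rα-/- colitis, WT colitis and WT normal arrays (x axis), 1 point per array, with the background range up to 3.5 shaded and grey lines joining the points of a probe set. The brightest Igha and Ighm probe sets peaked in WT colitis at 10.34 and 10.0, Pigr was lowest there at 10.85, and the third Ighm probe set lay in the background range on every array.

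Igha, the constant region of IgA heavy chains, had 2 probe sets. The brighter one had a log2 signal of 9.16 in IL-4Rα-/- colitis, 10.34 in WT colitis and 8.64 in WT normal. It was thus highest in WT colitis, with IL-4Rα-/- colitis nearer to WT normal. The signal was 3.25-fold higher in WT colitis relative to WT normal, rank 57 among 21789 single-symbol probe sets. It was 2.27-fold lower in IL-4Rα-/- colitis relative to WT colitis, and 1.43-fold higher in IL-4Rα-/- colitis relative to WT normal. The other Igha probe set had 8.79 in IL-4Rα-/- colitis, 9.47 in WT colitis and 8.67 in WT normal, the same order with a smaller range of 0.8. It was 1.74-fold higher in WT colitis relative to WT normal, yet 1.6-fold lower in IL-4Rα-/- colitis relative to WT colitis. Both probe sets are annotated through the same 7 cDNA accessions, so the annotation gives no reason to prefer either. By the mean log2 signal of the pair, Igha was 2.38-fold higher in WT colitis relative to WT normal, yet 1.91-fold lower in IL-4Rα-/- colitis relative to WT colitis, which no longer passes 2-fold. Probe sets that carry Igha beside other immunoglobulin symbols did not pass 2-fold. Their log2 differences ran from 0.27 to 0.7 for WT colitis minus WT normal and from -0.6 to -0.27 between the colitis arrays. Of all probe sets with the Igha symbol, only the brighter single-symbol one passed 2-fold.

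Ighm, the constant region of IgM heavy chains, had 3 probe sets that disagreed in size. The brightest had a log2 signal of 8.61 in IL-4Rα-/- colitis, 10.0 in WT colitis and 7.68 in WT normal. It had the widest range of the 12 probe sets, with IL-4Rα-/- colitis between the WT arrays. The signal was 4.99-fold higher in WT colitis relative to WT normal (rank 24 of the single-symbol probe sets), 2.62-fold lower in IL-4Rα-/- colitis relative to WT colitis, and 1.91-fold higher in IL-4Rα-/- colitis relative to WT normal. The next Ighm probe set had 7.53 in IL-4Rα-/- colitis, 7.82 in WT colitis and 7.52 in WT normal, and was 1.23-fold higher in WT colitis relative to WT normal. The last had 2.78 in IL-4Rα-/- colitis, 2.82 in WT colitis and 2.78 in WT normal, all in the background range. None of the 8 accessions of the brightest probe set is listed for the other 2. Averaged over all 3, Ighm was 1.85-fold higher in WT colitis relative to WT normal, yet 1.49-fold lower in IL-4Rα-/- colitis relative to WT colitis, so both of its calls past 2-fold rest on 1 probe set. An antibody mRNA carries a rearranged variable part as well as its constant part, and which part these probes read was not tested.

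Ighg3, the constant region of IgG3, an antibody class of serum, ran the other way in its only single-symbol probe set. Its log2 signal was 7.38 in IL-4Rα-/- colitis, 7.1 in WT colitis and 7.41 in WT normal, so the lowest value was that of WT colitis. Relative to WT normal it was 1.24-fold lower in WT colitis, and it was 1.21-fold higher in IL-4Rα-/- colitis relative to WT colitis. This probe set rests on 1 accession. Probe sets that carry Ighg3 beside Igha and other immunoglobulin symbols had the opposite signs and cannot be given to 1 gene. Their log2 differences were 0.56 and 0.6 for WT colitis minus WT normal, and both were -0.6 for IL-4Rα-/- colitis minus WT colitis.

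Jchain, which links IgA and IgM into polymers and is needed for binding to the receptor, did not follow Igha across the colitis arrays. Its log2 signal was 10.09 in IL-4Rα-/- colitis, 10.28 in WT colitis and 9.51 in WT normal. Both colitis arrays were above WT normal and lay close to each other. Jchain was 1.71-fold higher in WT colitis relative to WT normal and 1.49-fold higher in IL-4Rα-/- colitis relative to WT normal, but only 1.14-fold lower in IL-4Rα-/- colitis relative to WT colitis. Its log2 difference between the colitis arrays was -0.19, where that of the brighter Igha probe set was -1.18 and that of the other -0.68. Its promoter is the second of those printed above.

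Mzb1, an endoplasmic reticulum protein that helps B cells and plasma cells assemble and secrete antibody, had a log2 signal of 6.26 in IL-4Rα-/- colitis, 6.75 in WT colitis and 5.93 in WT normal. IL-4Rα-/- colitis lay between the WT arrays, 1.4-fold below WT colitis and 1.26-fold above WT normal, and WT colitis was 1.77-fold above WT normal. Tnfrsf17, the plasma cell survival receptor BCMA, had 4.09 in IL-4Rα-/- colitis, 4.14 in WT colitis and 4.09 in WT normal. It was dim and nearly flat, and its small differences changed sign when each array was centred on its median.

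The B cell genes Cd79a and Ms4a1 were highest in WT colitis, and IL-4Rα-/- colitis lay close to WT normal. Cd79a, a signalling chain of the B cell receptor, had a log2 signal of 6.41 in IL-4Rα-/- colitis, 7.1 in WT colitis and 6.46 in WT normal. WT colitis was 1.56-fold above WT normal, and IL-4Rα-/- colitis was 1.61-fold below WT colitis but only 1.04-fold below WT normal. Ms4a1, the B cell surface protein CD20, which plasma cells lose, had 5.05 in IL-4Rα-/- colitis, 5.99 in WT colitis and 4.87 in WT normal. It was 2.17-fold higher in WT colitis relative to WT normal, yet 1.92-fold lower in IL-4Rα-/- colitis relative to WT colitis. With an offset of 32 added to the linear signal, which shrinks differences of dim probe sets, the log2 difference of Ms4a1 between WT colitis and WT normal was 0.64 and no longer passed 2-fold.

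Pigr was bright on every array. Its small differences were opposite in sign to those of Igha in both comparisons with the WT colitis array, whereas both genes were above 0 in IL-4Rα-/- colitis relative to WT normal. Its log2 signal was 11.31 in IL-4Rα-/- colitis, 10.85 in WT colitis and 11.08 in WT normal. IL-4Rα-/- colitis had the highest and WT colitis the lowest value. Pigr was 1.17-fold lower in WT colitis relative to WT normal, 1.38-fold higher in IL-4Rα-/- colitis relative to WT colitis and 1.17-fold higher in IL-4Rα-/- colitis relative to WT normal. Of the 21789 single-symbol probe sets, it ranked 218 from the top for the difference between the colitis arrays. On the list of colonic epithelium, the median log2 difference was 0.0 for IL-4Rα-/- colitis minus WT colitis and -0.15 for WT colitis minus WT normal, where that of Pigr was 0.46 and -0.23.

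**Figure D2:**
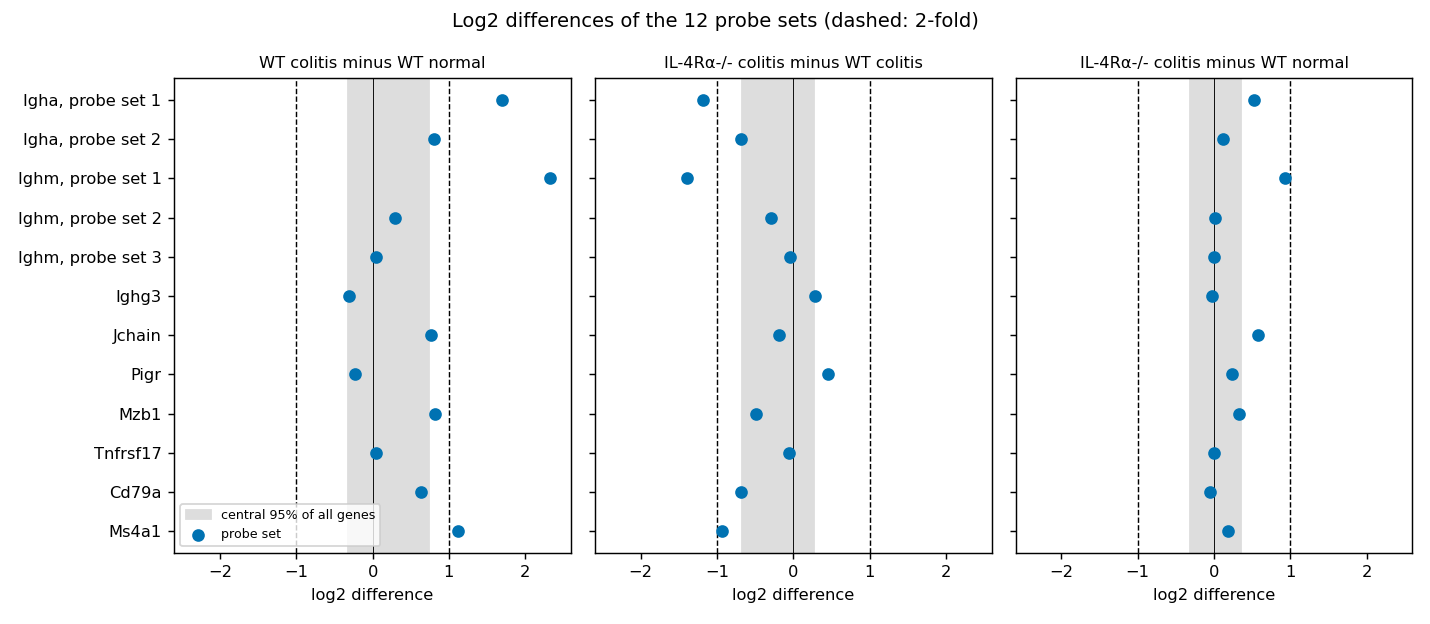
Log2 difference (x axis) of each of the 12 probe sets (y axis) in 3 comparisons, with dashed lines at 2-fold and the central 95% of all genes shaded. In the left panel the brightest Ighm and Igha probe sets lie at 2.32 and 1.7, and in the middle panel they lie at -1.39 and -1.18 while Pigr lies at 0.46.

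The probe sets with an immunoglobulin symbol numbered 31 in all, and these include the Igha, Ighm and Ighg3 probe sets described above. Of these, 15 had 1 symbol, 14 had several immunoglobulin symbols and 2 had a further symbol of another gene, and the last 2 kinds cannot be given to 1 gene. In WT colitis minus WT normal, 29 of the 31 had a difference above 0, 11 of them past 2-fold. The single-symbol Ighg3 probe set was below 0, and 1 probe set was exactly 0. Among all single-symbol probe sets, 35.8% were above 0, 12.3% below and 1.14% past 2-fold upward. In IL-4Rα-/- colitis minus WT colitis, 26 of the 31 were below 0, 6 of them past 2-fold, against 37.1% below 0 and 0.872% past 2-fold among all single-symbol probe sets. The largest difference between WT colitis and WT normal among the 31, 2.52, was that of a probe set for Igkv1-133 and Igkv1-135, with 9.17 in IL-4Rα-/- colitis, 10.48 in WT colitis and 7.96 in WT normal. The 2 probe sets with a further symbol of another gene differed from each other. One had 9.37 in IL-4Rα-/- colitis, 10.56 in WT colitis and 9.55 in WT normal, and the other had 11.78 in IL-4Rα-/- colitis, 11.68 in WT colitis and 10.59 in WT normal. The segments share sequence, so these probe sets are not independent readings.

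Single kappa segments did not share 1 pattern. Igkv19-93 had 2 probe sets. Its brighter probe set had a log2 signal of 7.08 in IL-4Rα-/- colitis, 10.26 in WT colitis and 8.04 in WT normal, while the other had 8.03 in IL-4Rα-/- colitis, 8.39 in WT colitis and 6.46 in WT normal. In IL-4Rα-/- colitis the first was at its lowest, while the second lay near WT colitis. Igkv4-91 had 6.48 in IL-4Rα-/- colitis and 7.96 on both WT arrays, so it was low in IL-4Rα-/- colitis alone. Igkv6-20 had 7.33 in IL-4Rα-/- colitis, 7.95 in WT colitis and 6.84 in WT normal, and Igkv9-120 had 10.97 in IL-4Rα-/- colitis, 11.38 in WT colitis and 10.32 in WT normal. By contrast, Igkv5-43 had 6.01 in IL-4Rα-/- colitis, 6.02 in WT colitis and 5.01 in WT normal, and Igkv8-30 had 6.37 in IL-4Rα-/- colitis, 6.37 in WT colitis and 5.46 in WT normal. Igkv5-43 and Igkv8-30 were thus about equal in both colitis pools. For IL-4Rα-/- colitis minus WT colitis, probe sets with the kappa constant gene Igkc among their symbols had -0.58, -0.67, -0.73 and -0.76. Minus WT normal, the same probe sets had 0.0, 0.4, 0.0 and 0.02. Between the colitis arrays, the single-symbol Igkv10-96 probe set had -0.92, and Igkv6-14 with Igkv6-15 had -0.7. Of all 31 immunoglobulin probe sets, 26 were below 0 there, 4 above and 1 equal. Lambda chains were at least as high in IL-4Rα-/- colitis. A probe set for Iglv1, Iglc1 and Iglv2 had 10.65 in IL-4Rα-/- colitis, 10.63 in WT colitis and 9.92 in WT normal, and the other with these symbols had 10.06 in IL-4Rα-/- colitis, 9.68 in WT colitis and 9.16 in WT normal. In IL-4Rα-/- colitis minus WT normal, the log2 difference was 0.58 for Jchain, 0.73 and 0.9 for the lambda chains, 0.52 and 0.12 for the Igha probe sets, and 0.93, 0.01 and 0.0 for the Ighm probe sets. The median of the 31 immunoglobulin probe sets in that comparison was 0.02, with 17 above 0, 7 below and 7 equal. Among all single-symbol probe sets, 17.0% were above 0 and 17.7% below. Of the 31, 3 passed 2-fold upward and 1 downward, against 0.184% and 0.312% of all single-symbol probe sets.

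**Figure D3:**
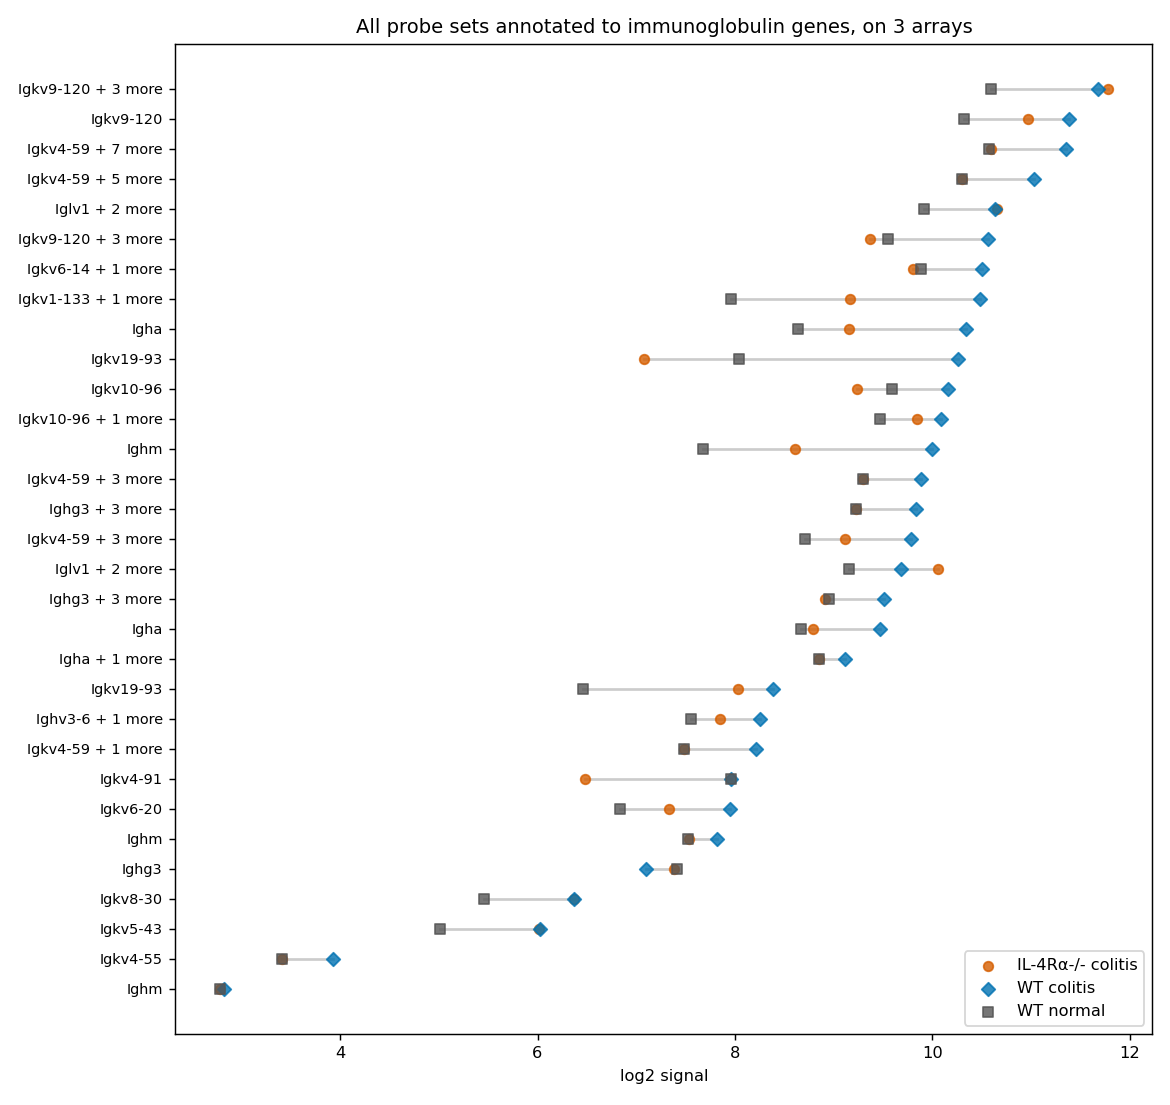
Log2 signal (x axis) of the 31 probe sets with an immunoglobulin symbol (y axis, ordered by WT colitis) on the 3 arrays, with a grey line spanning the 3 values and "more" counting further symbols of a probe set. WT colitis is the rightmost point for most probe sets, while Iglv1 with its 2 further symbols reaches 10.65 and 10.06 in IL-4Rα-/- colitis.

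Further genes of the antibody system were read from lists chosen with earlier results of these data known, again with the brightest probe set of each gene. In WT colitis minus WT normal, 35.8% of all genes were above 0, 12.0% below and 1.16% past 2-fold upward. Between the colitis arrays, 10.4% of all genes were above 0, 37.3% below and 0.908% past 2-fold downward. These shares apply to every list below. Of 18 other B cell genes, 15 were above 0 and 2 below in WT colitis minus WT normal with a median of 0.46, and 0 passed 2-fold. In IL-4Rα-/- colitis minus WT colitis, 14 of the 18 were below 0 and 2 above with a median of -0.59, and 1 was more than 2-fold lower. This was Ebf1, a transcription factor of the B lineage that other cell types also express, with 4.74 in IL-4Rα-/- colitis, 6.16 in WT colitis and 5.3 in WT normal. Tnfrsf13c, the receptor for the B cell survival factor BAFF, had 6.26 in IL-4Rα-/- colitis, 7.22 in WT colitis and 6.41 in WT normal, and Bank1, a B cell scaffold protein, had 5.05 in IL-4Rα-/- colitis, 5.76 in WT colitis and 4.81 in WT normal. Their order was that of Cd79a or Ms4a1. Against WT normal, the median of the 18 in IL-4Rα-/- colitis was 0.0.

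Of 16 other plasma cell genes, 2 were more than 2-fold higher in WT colitis relative to WT normal and 0 lower, with a median of 0.11. Among all genes, 1.16% were that much higher and 0.456% lower. Pou2af1, a B cell coactivator of antibody genes, had 6.38 in IL-4Rα-/- colitis, 7.07 in WT colitis and 5.54 in WT normal. Prdm1, the plasma cell regulator BLIMP-1, had 5.32 in IL-4Rα-/- colitis, 6.0 in WT colitis and 4.61 in WT normal. Both lay between the WT arrays in IL-4Rα-/- colitis, as Mzb1 did. Irf4, another regulator of plasma cells, had 5.28 on both colitis arrays and 4.67 in WT normal. Xbp1, a regulator of secretion in plasma cells and in epithelium, was nearly flat, at 9.53 in IL-4Rα-/- colitis, 9.59 in WT colitis and 9.53 in WT normal. Between the colitis arrays 0 of the 16 passed 2-fold, and the median was -0.07.

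Genes of lymphoid follicles were read because colon can hold B cell follicles. Of 15 such genes, 1 was more than 2-fold higher in WT colitis relative to WT normal, against 1.16% of all genes. This was Cxcl13, the chemokine that draws B cells into follicles, with 8.5 in IL-4Rα-/- colitis, 9.65 in WT colitis and 7.99 in WT normal. It was 2.22-fold lower in IL-4Rα-/- colitis relative to WT colitis. Fcer2a, the low affinity IgE receptor of B cells and a gene induced by IL-4, was 2.17-fold lower there, with 3.63 in IL-4Rα-/- colitis, 4.75 in WT colitis and 4.14 in WT normal. Cr2, a complement receptor of B cells and follicular dendritic cells, had 5.06 in IL-4Rα-/- colitis, 5.26 in WT colitis and 4.75 in WT normal. Gp2, a receptor of the M cells that overlie follicles, ran another way, with 3.42 in IL-4Rα-/- colitis, 3.99 in WT colitis and 4.92 in WT normal. It was highest in WT normal, and its log2 difference was -0.93 for WT colitis and -1.5 for IL-4Rα-/- colitis, each minus WT normal. Of the 15 genes, only 1, Gp2, was below 0 in WT colitis minus WT normal. Its signal in IL-4Rα-/- colitis lay in the background range, and which cells gave the Gp2 signal was not tested. Of 13 germinal centre and class switch genes, 5 had a mean log2 signal of at least 4. The only one past 2-fold was Rgs13, a signalling regulator of germinal centre B cells and mast cells, with 3.41 in IL-4Rα-/- colitis, 4.68 in WT colitis and 3.55 in WT normal. The part that follicle content played in the Igha, Ighm, Cd79a and Ms4a1 differences was not tested.

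Signals that bring plasma cells to the gut went in different directions. Ccl28, an epithelial chemokine that attracts IgA plasma cells, had 9.12 in IL-4Rα-/- colitis, 8.06 in WT colitis and 8.27 in WT normal. Like Pigr, it was highest in IL-4Rα-/- colitis, 2.08-fold above WT colitis. Vcam1, a vascular adhesion molecule, had 6.09 in IL-4Rα-/- colitis, 7.34 in WT colitis and 4.98 in WT normal, and Cxcr4, the receptor of CXCL12, had 6.23 in IL-4Rα-/- colitis, 7.14 in WT colitis and 6.19 in WT normal. Itgb7, a subunit of the gut homing integrin, had the same signal of 4.07 on all 3 arrays. S1pr1 had 4.41 in IL-4Rα-/- colitis, 5.32 in WT colitis and 4.03 in WT normal. In WT colitis minus WT normal, 7 of the 11 genes measured were above 0 and 1 below. In that comparison 2, Vcam1 and S1pr1, passed 2-fold upward and 0 downward, against 1.16% and 0.456% of all genes. Over the same 11 genes, 1 was more than 2-fold higher and 1 lower in IL-4Rα-/- colitis relative to WT colitis. Among all genes, 0.271% were that much higher and 0.908% lower.

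Genes of IgA transport and known regulators of Pigr differed little. Of 16 in that group, 0 were more than 2-fold different between WT colitis and WT normal, and 1, Il4ra itself, was more than 2-fold lower in IL-4Rα-/- colitis relative to WT colitis. Stat6, which acts downstream of IL-4Rα, had 7.2 in IL-4Rα-/- colitis, 7.38 in WT colitis and 7.2 in WT normal, and Irf1, the interferon regulatory factor, had 8.0 on all 3 arrays. Il17a and Ifng, cytokines known to induce Pigr, were in the background range on every array. Among 12 genes for vesicle sorting, 1 passed 2-fold, Rab5a of early endosomes, with 7.82 in IL-4Rα-/- colitis, 8.35 in WT colitis and 7.07 in WT normal. Rab25, a sorting protein of epithelial cells, had 9.62 in IL-4Rα-/- colitis, 9.07 in WT colitis and 9.85 in WT normal, lowest in WT colitis as Pigr was.

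Markers of endothelium and of macrophages and dendritic cells were mostly higher in WT colitis, as Igha and Ighm were. Those of epithelium differed little, and the medians of T cell genes were near 0 with dim genes included. All 11 endothelial genes were above 0 in WT colitis minus WT normal, with a median of 0.51, and all 11 were below 0 in IL-4Rα-/- colitis minus WT colitis, with a median of -0.55. In each of these comparisons 1 of the 11 passed 2-fold. Among all genes, 35.8% were above 0 and 1.16% past 2-fold upward in the first comparison. In the second, 37.3% of all genes were below 0 and 0.908% past 2-fold downward. The summed linear signal of the 11 endothelial genes was 441 in IL-4Rα-/- colitis, 671 in WT colitis and 465 in WT normal. Among 12 genes of macrophages and dendritic cells, 9 were above and 0 below 0 in WT colitis minus WT normal, with a median of 0.28 and summed linear signals of 1420 in IL-4Rα-/- colitis, 2010 in WT colitis and 1450 in WT normal. Of these 12, 1 passed 2-fold in WT colitis relative to WT normal and 1 in IL-4Rα-/- colitis relative to WT colitis. The 11 T cell genes had a median of 0.0 for IL-4Rα-/- colitis minus WT colitis and 0.02 for WT colitis minus WT normal, and 0 passed 2-fold. In the latter comparison 6 of them were above 0, 0 below and 5 exactly 0. Only 6 of the 11 had a mean log2 signal of at least 4. With that filter the median for WT colitis minus WT normal was 0.27 for T cells and 0.28 for macrophages and dendritic cells. The part of these cell types in the results on antibody genes was not tested.

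**Figure D4:**
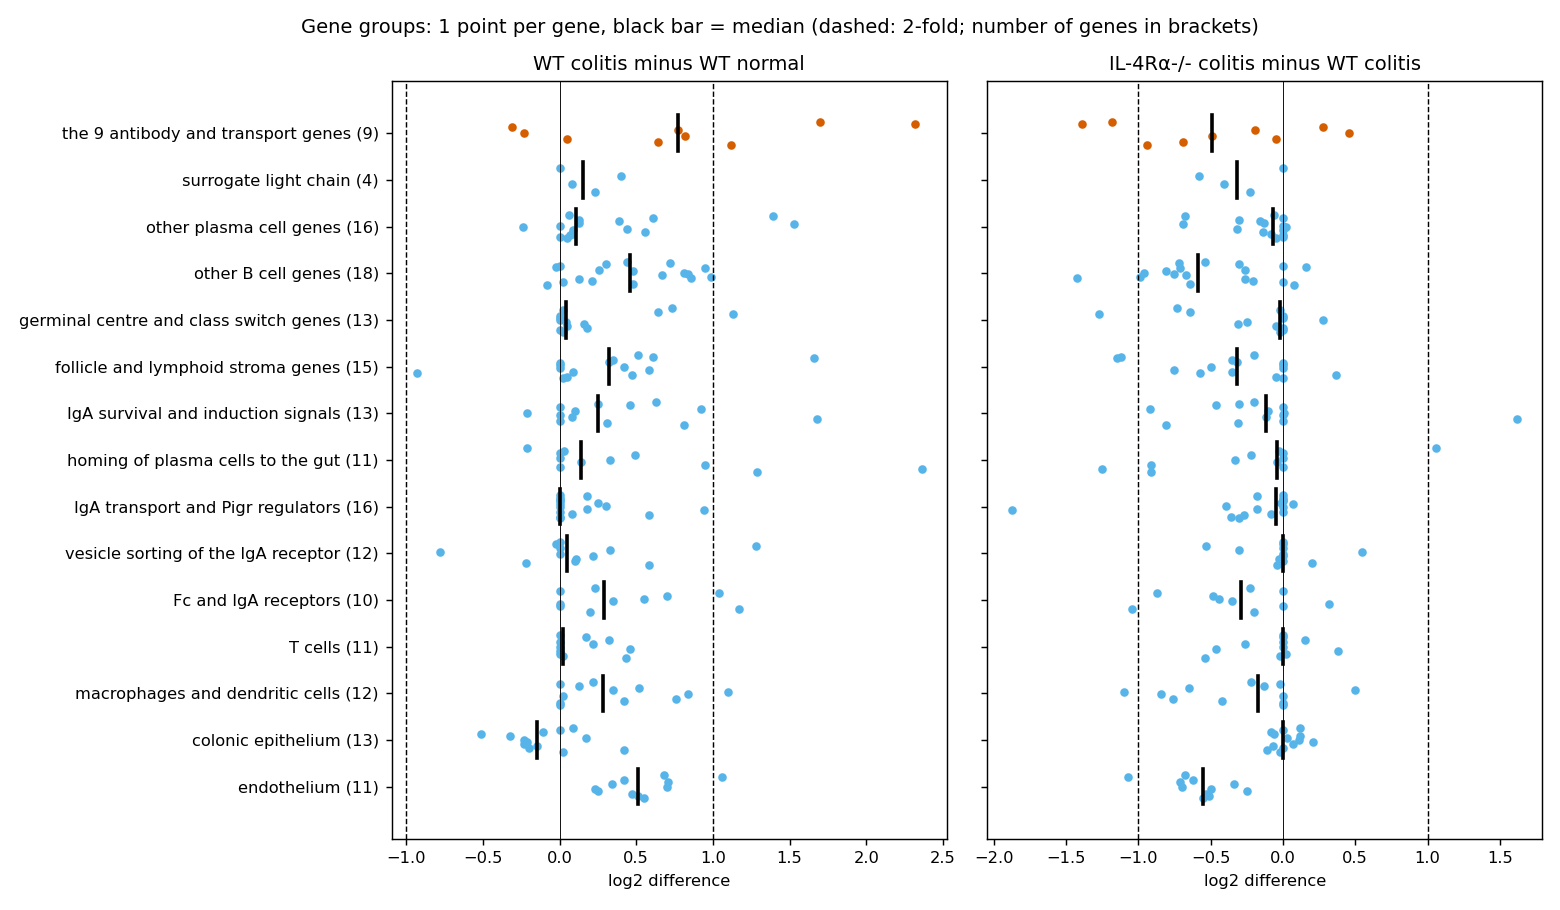
Log2 differences (x axis) of single genes in each group (y axis, with the number of genes measured) for WT colitis minus WT normal on the left, with IL-4Rα-/- colitis minus WT colitis on the right, with black bars at the medians and dashed lines at 2-fold. The medians of other B cell genes (0.46 and -0.59) and of endothelium (0.51 and -0.55) lie on opposite sides of 0 in the panels. T cell medians (0.02 and 0.0) lie near 0.

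As a description, the single-symbol probe sets whose 3 values, each centred on their own mean, lay closest to those of a member were listed for the 3 members whose brightest probe set ranged over more than 2-fold. Likeness was the Euclidean distance over 3 arrays, and 3 points allow many genes to look alike. Closest to Igha was Cxcl13, at a distance of 0.029, followed by the interferon-induced Ifitm1 (0.059), Ifit2 (0.102), a second Ifitm1 probe set (0.126) and Bnip3 (0.157). Closest to Ighm were Vcam1 (0.134), Mmp3 (0.151), Pappa (0.155), Chrdl2 (0.242) and Osmr (0.255). Closest to Ms4a1 were Slc7a11 (0.014), Srpx2 (0.029), Hmox1 (0.042), Mrc2 (0.054) and Fcgr2b, an inhibitory IgG receptor of B cells and myeloid cells (0.062).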

How the data were processed

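RNA of distal colon was pooled within each group and hybridised to 1 array per group, GeneChip Mouse Gene 1.0 ST per the methods, whereas the labels describe a Cy3 labelling kit of another maker. Log2 signals of 28944 probe sets, rounded to 2 decimals, were deposited. How the authors summarised and normalized them is not stated in the labels or methods used here. Gene symbols came from the platform annotation. Old symbols were updated through gene numbers in RefSeq for 21698 of the 21789 probe sets with 1 symbol, while 1621 had several symbols and 5534 none here. Log2 differences were taken between the deposited values, and 2-fold, a log2 difference of 1, was the line for counts. The brightest probe set by mean over the 3 arrays stood for a gene in counts. With 1 array per group no test was run, and no p-value is given. The number of arrays limits the precision.

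The 9 genes, the other gene lists and the background range were chosen with earlier results of these data known. The text names every probe set of the 9 genes, Il4ra, the probe sets with 1 immunoglobulin symbol and the largest differences, up to 4 genes of each list with the largest differences, and the 5 closest profiles of each of the 9 genes that ranged over more than 2-fold. Krt8, Xbp1, Cr2, Stat6, Irf1, Il17a, Ifng, Il5, Il10, Tslp, Itgb7, Tfrc, Igkv5-43, Igkv6-20, Igkv8-30, Igkv9-120 and the probe sets with several immunoglobulin symbols fall outside this rule and were picked after their values had been seen. Igkv10-96 was also picked after its values had been seen. A list of 8 other heavy chain genes gave no gene with a probe set of its own. The 5 alternatives were quantile normalization, centring arrays on their medians, an offset of 32 on the linear scale, genes with a mean log2 signal of at least 4, and averaging the probe sets of a gene. A value was taken as unmoved by an alternative if it moved by less than 1.4826 times the median absolute deviation of the differences over the 15368 probe sets that differed between any arrays. The counting and profile steps were tested on simulated data. Python 3.11.15, numpy 2.4.6, pandas 2.3.3 and matplotlib 3.10.9 were used.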

Additional observations from a re-analysis of the deposited data

How the results depend on the processing

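No replicate could be left out and no paired analysis was possible because each group had 1 array. Of the 9 genes, 2 were more than 2-fold lower in IL-4Rα-/- colitis relative to WT colitis with the brightest probe set, but 0 with probe sets averaged per gene, since the probe sets of Igha and of Ighm differ. The median difference of the 9 genes for WT colitis minus WT normal was 0.59 with an offset of 32, against 0.77 without. In WT colitis relative to WT normal, 2 instead of 3 of them passed 2-fold upward with the offset and with probe sets averaged per gene. The offset shrinks differences of dim probe sets, and with it the medians for WT colitis minus WT normal were 0.26 for other B cell genes, 0.23 for endothelium and 0.05 for IgA survival and induction signals. For IL-4Rα-/- colitis minus WT colitis they were -0.26 for other B cell genes, -0.31 for endothelium, -0.11 for follicle and lymphoid stroma genes and -0.08 for the surrogate light chain genes. Among genes with a mean log2 signal of at least 4, the medians were 0.46 for IgA survival and induction signals and 0.27 for T cells in WT colitis minus WT normal, and 0.09 for T cells and -0.33 for 1 surrogate light chain gene in IL-4Rα-/- colitis minus WT normal. This filter leaves fewer genes in these lists. Of 102 recomputed differences of single probe sets, 6 changed sign, all of them of Tnfrsf17 or the third Ighm probe set and none larger than 0.05 in size as deposited. One further value, that of Ms4a1 with the offset, crossed 2-fold.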

Other observations

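A list of Fc and IgA receptors, without Pigr, was not described above as a group. Of its 10 genes measured, 2 were more than 2-fold higher in WT colitis relative to WT normal, against 1.16% of all genes. Fcer1a, a chain of the high affinity IgE receptor of mast cells and basophils, had a log2 signal of 3.03 in IL-4Rα-/- colitis, 4.07 in WT colitis and 2.9 in WT normal, so it left the background range in WT colitis alone. Fcgr2b, the inhibitory IgG receptor, had 5.95 in IL-4Rα-/- colitis, 6.82 in WT colitis and 5.78 in WT normal. Fcgr3, an activating IgG receptor of myeloid cells, had 4.78 in IL-4Rα-/- colitis, 5.26 in WT colitis and 4.56 in WT normal. Tfrc, the transferrin receptor, which can also bind polymeric IgA, had 7.69 in IL-4Rα-/- colitis and 7.37 on both WT arrays.

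Among 13 signals for the survival and induction of IgA cells, Tnfsf13b, the B cell survival factor BAFF, had 6.14 in IL-4Rα-/- colitis, 6.34 in WT colitis and 5.71 in WT normal. Il6st, the signalling chain shared by receptors of the IL-6 family, had 7.68 in IL-4Rα-/- colitis, 8.49 in WT colitis and 7.68 in WT normal. Nos2, inducible nitric oxide synthase, was highest in IL-4Rα-/- colitis, with 6.93 there, 5.31 in WT colitis and 3.63 in WT normal. Il6 had 2.06 in IL-4Rα-/- colitis, 2.98 in WT colitis and 2.06 in WT normal, all in the background range. Il5, Il10 and Tslp were also in the background range on every array.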
